A study of Homo sapiens with 6 samples.

Results

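Chromosomes 4 and 13 are the most AT-rich of the human chromosomes, and the open chromatin regions that the study listed on them are described here in human embryonic stem cells of the line WA09. The regions were chosen by position, as every region of the deposited table on either chromosome, with earlier results of these data known. They number 10795 of 118556 (9.11%). Chromosome 4 held 7234 regions and chromosome 13 held 3561. The assay was FAST-ATAC, a form of ATAC-seq that uses digitonin and the Tn5 transposase, an enzyme that inserts adapters where DNA is accessible. Cells were sorted by flow cytometry into a GCTM-2high CD9high EPCAMhigh population (the high population) and a GCTM-2mid CD9mid population (the mid population, labelled lo in the table), with 3 biological replicates of each. GCTM-2, CD9 and EPCAM are surface antigens of undifferentiated cells; the label of the mid population names no EPCAM level. No agent is given for either population, and all 6 samples came from a single cell line. Cell identity could not be checked against marker genes, because the table lists regions without genes.

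AT-rich stretches of human chromosomes form the Giemsa-dark bands, in which genes are sparse and long, DNA tends to replicate late in S phase, and much of the chromatin lies near the nuclear lamina. GC-rich stretches hold more genes and more CpG island promoters, which are open in most cell types. Chromosome 13 is acrocentric: its short arm carries ribosomal RNA genes and satellite repeats, so unique sequence is found almost wholly on the long arm.

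In the GRCh38 reference, AT made up 61.8% of chromosome 4 and 61.4% of chromosome 13, the first and second highest of 24 chromosomes. GENCODE gave chromosome 4 3.99 protein-coding genes per Mb and chromosome 13 3.30, which were ranks 4 and 2 from the lowest. The counts themselves are on hg19, so no position was compared between the builds.

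The regions had been selected on read depth, since the authors called them on alignments pooled over replicates, and the number of regions per stretch of chromosome is therefore given as a description. Chromosome 4 held 37.9 regions per Mb of the stretch that its regions spanned, and chromosome 13 held 37.5. These were ranks 18 and 19 of 24 chromosomes from the densest, with 55.5 per Mb on chromosome 22, the densest, and 25.4 per Mb on the X chromosome. Regions covered 3.96% of the spanned stretch of chromosome 4 and 3.87% of that of chromosome 13.

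The regions of the 2 chromosomes were narrower and held fewer reads than those of the whole table. Their median width was 808 bp (quartiles 637 and 1145), against 879 bp (663 and 1334) for all regions. Regions over 2000 bp made up 8.12% of them, against 11.8% of all. The median region held 459 reads over the 6 samples, against 546 in the whole table, and every sample had reads in every one of the 10795 regions. Neighbouring regions lay a median of 15163 bp apart, against 12807.5 bp over all chromosomes. Levels are given as CPM, counts scaled to a common library size with TMM factors, and a filter of CPM above 1 in at least 3 samples would have kept 10783 regions and removed 12; it was not applied to the values below.

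Counted in 5 Mb bins of the region midpoint, the 2 chromosomes filled 59 bins, 39 on chromosome 4 and 20 on chromosome 13. The median bin held 185 regions (quartiles 159 and 214.5, range 7 to 306), against 206 (161.25 and 243) in the other 542 bins of the genome. On chromosome 4 the densest bins were 0 to 5 Mb with 306 regions, 5 to 10 Mb with 298 and 150 to 155 Mb with 258. Away from the partly filled last bin, which held 23, the fewest regions lay at 50 to 55 Mb (78) and 30 to 35 Mb (93). The bin at 50 to 55 Mb is cut by the gap around the centromere given below, and its regions begin at 52697055. On chromosome 13 the densest bins were 110 to 115 Mb with 282 regions, 100 to 105 Mb with 242 and 95 to 100 Mb with 241. The partly filled last bin held 7 regions, and 85 to 90 Mb (111) and 65 to 70 Mb (114) had the fewest of the rest. The density thus peaked in the first bins of the short arm of chromosome 4 and in the last whole bin of the long arm of chromosome 13.

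**Figure D1:**
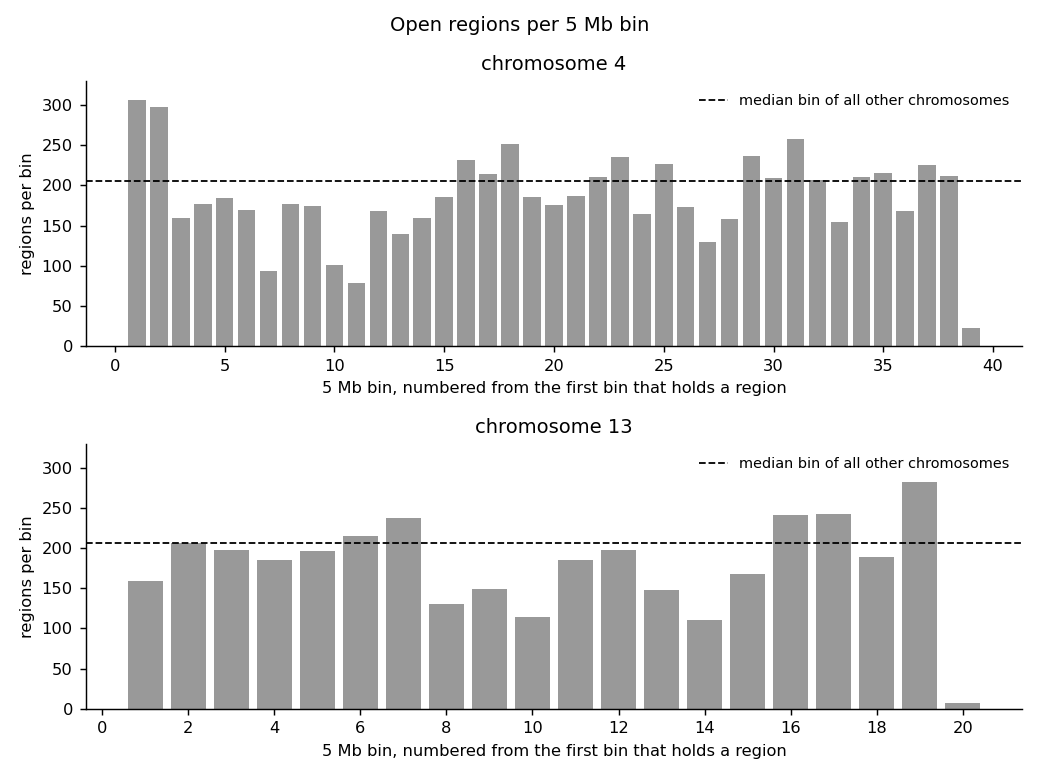
Number of listed open regions (y axis) in each 5 Mb bin along chromosome 4 and chromosome 13 (x axis, bins numbered from the first that holds a region). The dashed line in each panel marks the median of 206 over the 542 bins of the other chromosomes. The tallest bars are the first bin of chromosome 4 (306) and the last whole bin of chromosome 13 (282).

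The longest stretch without a listed region on chromosome 4 was 3708 kb, at chr4:48988989-52697054, which includes the centromere. The next were 347 kb at chr4:59609774-59956924 and 322 kb at chr4:190156668-190478553. Chromosome 13 had gaps of 408 kb at chr13:68878904-69287291, 285 kb at chr13:86730388-87015529 and 257 kb at chr13:56987425-57244619. The sequence of these stretches was not read, since no hg19 genome was used here.

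Both chromosomes took a larger part of the reads in the high population than in the mid population. The share of all counts that fell on chromosome 4 was 6.09%, 5.68% and 5.29% in high replicates 1, 2 and 3, and 4.76%, 4.69% and 4.89% in mid replicates 1, 2 and 3. All 3 high samples lay above all 3 mid samples. The means were 5.69% ± 0.398 (SD, n = 3) and 4.78% ± 0.1 (SD, n = 3), a difference of 0.906 percentage points and a ratio of 1.19, and the two-sided exact permutation test gave p = 0.1, below which 3 against 3 samples cannot go. The difference within same-numbered pairs was 1.33, 0.990 and 0.403 points, so replicate 3 differed least.

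Chromosome 13 held 2.74%, 2.57% and 2.50% of the counts in the high samples and 2.30%, 2.30% and 2.37% in the mid samples. The groups did not overlap here either. The means were 2.61% ± 0.123 (SD, n = 3) and 2.32% ± 0.0412 (SD, n = 3), a ratio of 1.12, and the exact permutation test again gave its smallest p, 0.1. Counting error was far smaller than these differences, with 95% Wilson intervals between 0.0109 and 0.0231 percentage points wide. These intervals cover counting error only and leave out the spread between replicates. The libraries held 15486251 to 26225539 counts in the high population and 23091028 to 29025274 in the mid population. The samples of replicate 3 were close in depth, at 26225539 and 26338105 counts, and kept the direction on both chromosomes. That pair also had the smallest differences, 0.403 points on chromosome 4 and 0.133 on chromosome 13. In pairs 1 and 2 the mid sample was deeper, and the differences were 1.33 and 0.990 points on chromosome 4 and 0.442 and 0.274 on chromosome 13. The part of depth in the differences was not tested. In sorted bulk cells, more cells with an open region and a region that is more often open per cell cannot be told apart.

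**Figure D2:**
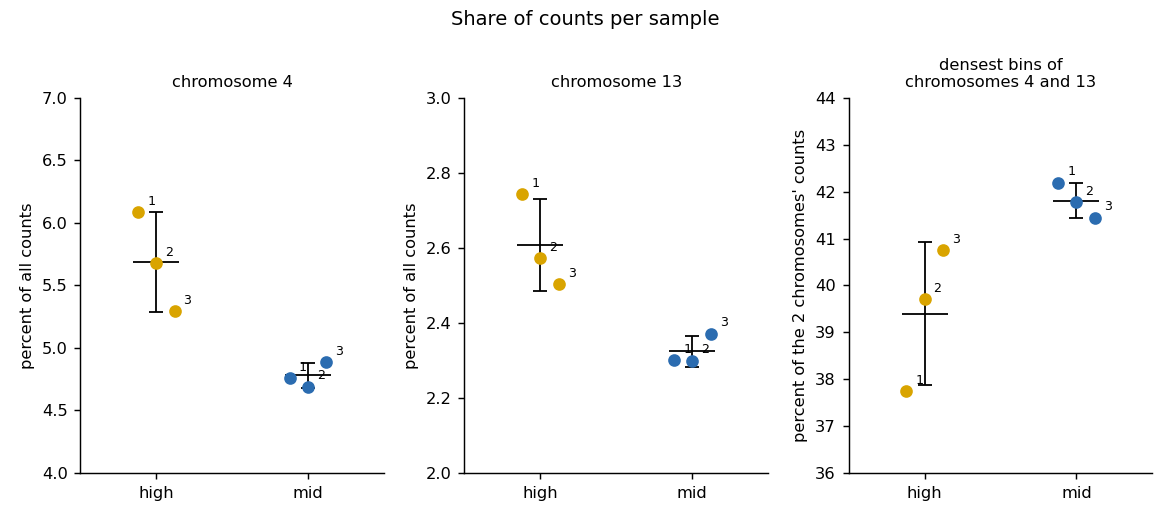
Percent of all counts of a sample (y axis) on chromosome 4, on chromosome 13, and percent of the counts of both chromosomes that lay in their densest bins, for the high and mid samples (points, numbered by replicate; bars show mean and SD, n = 3). High samples sit above mid samples on each chromosome and below them in the densest bins, and the y axes do not start at 0.

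Counts on chromosomes 4 and 13 were also set against other chromosomes within each sample. Per count on chromosome 5, another AT-rich and large chromosome, they amounted to 1.45, 1.4 and 1.35 in the high samples and 1.32, 1.33 and 1.34 in the mid samples. Per count on the GC-rich chromosomes 16 and 22 together, they amounted to 2.12, 1.79 and 1.60 against 1.30, 1.24 and 1.34. Each ratio separated the groups, and the mean ratio to chromosomes 16 and 22 was 1.42 times as large in the high population (1.83 ± 0.266 against 1.29 ± 0.0513, SD, n = 3, exact permutation p = 0.1). The 2 chromosomes differed from each other too, with 2.22, 2.21 and 2.11 counts on chromosome 4 per count on chromosome 13 in the high samples and 2.07, 2.04 and 2.06 in the mid samples.

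Region by region, differences were expressed as log2 fold changes of high over mid after TMM scaling, so that positive values mean more reads in the high population. The median over the regions was 0.24 on chromosome 4 and 0.19 on chromosome 13, against 0.03 over all regions of the table. These were the highest and second highest medians of the 24 chromosomes, followed by chromosome 5 at 0.15, while chromosome 22 had -0.35 and chromosome 19 had -0.47. In same-numbered pairs the median was 0.33, 0.25 and 0.11 on chromosome 4 and 0.25, 0.18 and 0.10 on chromosome 13. With total counts in place of TMM factors the median of all regions rose to 0.12, and the medians of chromosomes 4 and 13 rose with it, to 0.28 for chromosome 13.

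Apart from the Y chromosome, the order of the chromosomes followed their base composition. The Y chromosome had 60.0% AT and the lowest median, -0.51, over 21 regions. Across 23 chromosomes, without the Y chromosome, Pearson's r between the percent of AT and the median log2 fold change was 0.946 and Spearman's rho 0.945, given as a description since all points come from the same 6 libraries. Over the 20 autosomes other than 4 and 13, r was 0.934. Base composition was thus shared by the whole ordering without the Y chromosome, and its part in the difference on chromosomes 4 and 13 was not tested. The GC content of single regions was not computed.

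**Figure D3:**
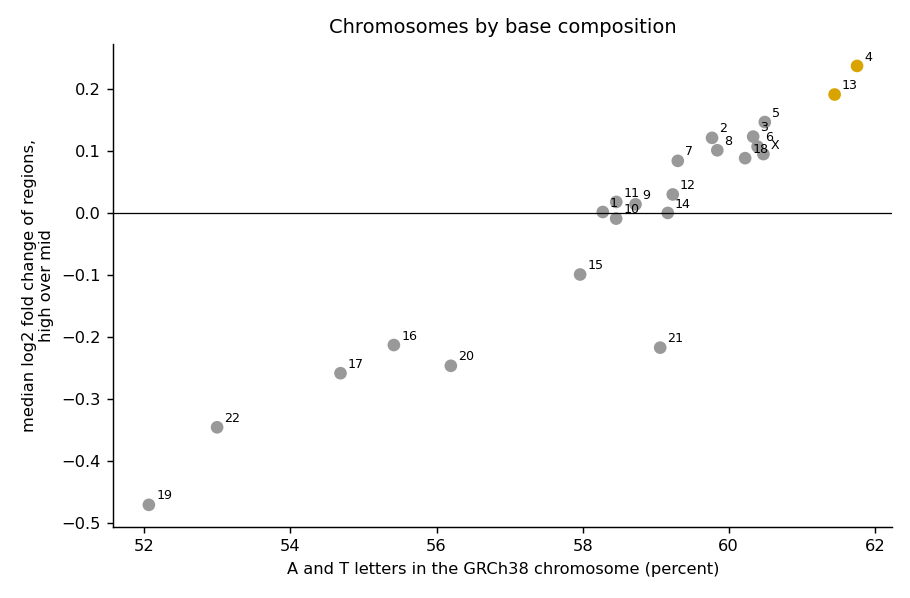
Median log2 fold change of high over mid over the regions of each chromosome other than Y (y axis) against the percent of AT of that chromosome in GRCh38 (x axis), with chromosomes 4 and 13 marked. Chromosomes 4 and 13 lie at the upper right, at 61.8% AT and 0.24 and at 61.4% AT and 0.19.

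The test of each region used edgeR's quasi-likelihood fit over all 118556 regions with the replicate number as a block, and a region was called at a Benjamini-Hochberg adjusted p under 0.01. On the 2 chromosomes, 506 regions were higher in the high population (4.69%, against 2.32% of all regions) and 94 were higher in the mid population (0.871%, against 3.77%). The high calls therefore took a larger share of these regions than of the table and the mid calls a smaller one. Chromosome 4 had 350 high and 36 mid calls, and chromosome 13 had 156 and 58. The direction was the same in all 3 pairs for 505 high and 93 mid calls (over the table, 2736 of 2747 and 4459 of 4472). Changes of more than 2-fold were seen in 118 and 11 (over the table, 706 of 2747 and 288 of 4472). Of the 10795 regions, 73.1% had a positive log2 fold change, against 53.5% in the table.

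All 3 high samples lay above all 3 mid samples in 2373 regions (22%, against 12.9% of the table), and the reverse held in 499 (4.62%, against 13% of the table). Regions with an unadjusted p under 0.05 made up 30.0%, close to the 27.8% of the table. Without the replicate block, edgeR called 61 high and 13 mid regions on these chromosomes, where the shares over the table were 0.236% and 1.11%. Leaving out high replicate 1, high replicate 2 or mid replicate 2 lowered the high calls to 281, 71 and 61 (2.60%, 0.658% and 0.565% of these regions, against 1.39%, 0.364% and 0.313% of the table). Without high replicate 2 or mid replicate 2 the mid calls were 6 and 3 (0.0556% and 0.0278%, against 0.708% and 0.364%). With the replicate block, a sample left out also leaves its same-numbered partner without a comparison. Each such fit thus rests on the other pairs, with fewer samples to estimate the spread, and nearly repeats the fit without the pair. Without both samples of replicate 2 there were 62 high and 3 mid calls (0.574% and 0.0278%, against 0.313% and 0.369%).

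The balance between the directions depended on what the counts were set against. In edgeR, high calls made up 84.3% of the calls on the 2 chromosomes with TMM scaling and 93.4% with total counts. They made up 81.6% with RLE size factors, 78.5% with upper quartile scaling, and 91.2% and 91.7% with loess offsets on average log2 CPM and on width. DESeq2, a different test that gave an adjusted p for 5588 of the regions, had 72.8%. An offset per chromosome and sample, the median deviation of log2 CPM over the regions of the chromosome, gave 33.3%. That last setting removes any difference shared by a whole chromosome; it left 137 high calls (1.27%, against 1.49% of the table) and 275 mid calls (2.55%, against 2.85%), shares near those of the table. The excess of high calls on chromosomes 4 and 13 was thus measured relative to the rest of the genome. The balance over the whole table moved with the setting as well. TMM scaling had 2747 high and 4472 mid calls there, total counts 4971 and 3179, and DESeq2 968 and 3635. RLE had 2465 and 4861, and upper quartile scaling 2366 and 5676. The loess corrections had 3770 and 3123 for depth, and 3245 and 2887 for width. Shifts between settings were therefore not confined to the 2 chromosomes.

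Calls in the 2 directions differed in the width and depth of the regions. High calls had a median width of 1020 bp and a median log2 CPM of 2.60, mid calls 2428.5 bp and 4.6, and regions not called 791 bp and 1.75. Of the mid calls, 59 (62.8%) were over 2000 bp wide, and of the high calls 48 (9.49%). In the widest class, over 2000 bp, the 2 chromosomes had 877 regions, of which 5.47% were called high and 6.73% mid, against 1.93% and 20.7% of all regions that wide. In the class over 600 and up to 1000 bp, which held 5333 regions, the calls were 4.20% high and 0.150% mid, against 2.25% and 0.598%. From there to 2000 bp they were 7.91% and 0.733%, against 3.35% and 3.40%. In these 3 classes high calls took a larger share and mid calls a smaller share than in the table. Regions up to 600 bp were near the table, with 18 high and 7 mid calls of 1855 (0.970% and 0.377%, against 0.779% and 0.483%), and on chromosome 13 their mid share, 5 of 652 (0.767%), was above that of the table. Among regions over 2000 bp, chromosome 4 had 39 high and 23 mid calls of 610 (6.39% and 3.77%). Chromosome 13 had 9 and 36 of 267 (3.37% and 13.5%). On both, the high share was above that of all regions this wide (1.93%) and the mid share below it (20.7%), by less on chromosome 13.

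**Figure D4:**
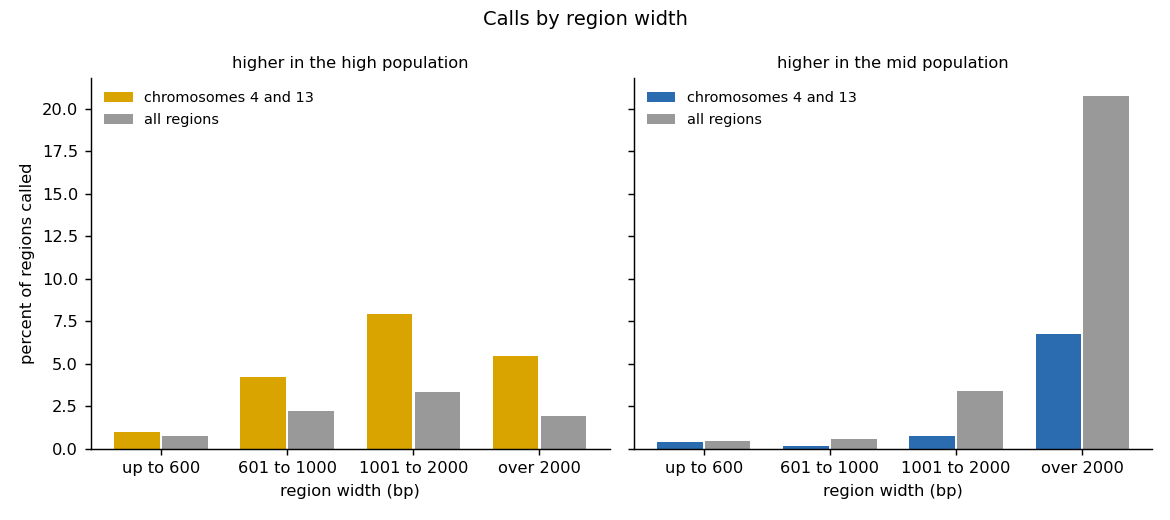
Percent of regions called in each direction, high or mid (y axis), by region width in bp (x axis), for chromosomes 4 and 13 and for all regions of the table. Mid calls are most frequent over 2000 bp, with 6.73% on the 2 chromosomes and 20.7% in the table, and the shares up to 600 bp are near each other.

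Reads also lay differently along the chromosomes. The 15 bins with at least 214.5 regions took 37.7%, 39.7% and 40.7% of the counts of the 2 chromosomes in the high samples and 42.2%, 41.8% and 41.4% in the mid samples. Dense bins thus had a smaller part in the high population, by 2.41 percentage points in the means (39.4% ± 1.52 and 41.8% ± 0.374, SD, n = 3, exact permutation p = 0.1). The 16 bins with at most 159 regions had 13.7% ± 0.321 against 13.1% ± 0.239 (SD, n = 3, exact permutation p = 0.1). The median log2 fold change of single regions was 0.30 in the sparsest bins, 0.28 and 0.25 in the middle classes and 0.12 in the densest. Regions of other chromosomes gave 0.12, 0.12, 0.10 and -0.05 in bins of the same densities, so the order by density was shared and the level was lower.

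Summed over each 5 Mb bin and fitted in edgeR across all bins of the genome, 24 of the 59 bins were higher in the high population (40.7% of them, against 17.1% of all bins) and 3 were higher in the mid population (5.08%, against 18.3%). Chromosome 4 had 17 high bins and 1 mid bin, and chromosome 13 had 7 and 2. Without the block there were 19 and 2 (13.8% and 15.8% over the genome). Groups did not overlap in 41 bins with higher high samples, against 37.9% of all bins, and in 8 bins with higher mid samples, against 35.9%. Fold changes on the log2 scale ran from -0.42 to 0.43 over the 59 bins, with 47 above 0. Without high replicate 2 or mid replicate 2 no bin was called by edgeR in either direction. There, 11 and 13 bins had an unadjusted p under 0.05 in the high direction and 2 and 2 in the mid direction. Counts over the genome at that unadjusted threshold are not given for these fits. Over the genome the high calls were 0% in both fits and the mid calls 0.499% and 0.333%. Without high replicate 1 or mid replicate 1 a single bin was called high, against 0.832% and 0.666% of all bins. In each of these 4 fits 48 bins were above 0, and 1 bin had another sign than with all samples. The fits without either sample of a pair rest on the same other pairs, so they are not separate checks. Without high replicate 3 there were 37 high bins (62.7%, against 31.1% of all bins).

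Many high bins stood next to each other. On chromosome 4 the longest run was 155 to 180 Mb, with 5 bins, followed by 115 to 135 Mb with 4 and 95 to 110 Mb with 3. On chromosome 13 all 7 high bins formed 1 run, from 60 to 95 Mb. The mid bins were 5 to 10 Mb on chromosome 4 and the adjoining bins of 20 to 30 Mb on chromosome 13, the first long-arm bins with listed regions.

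**Figure D5:**
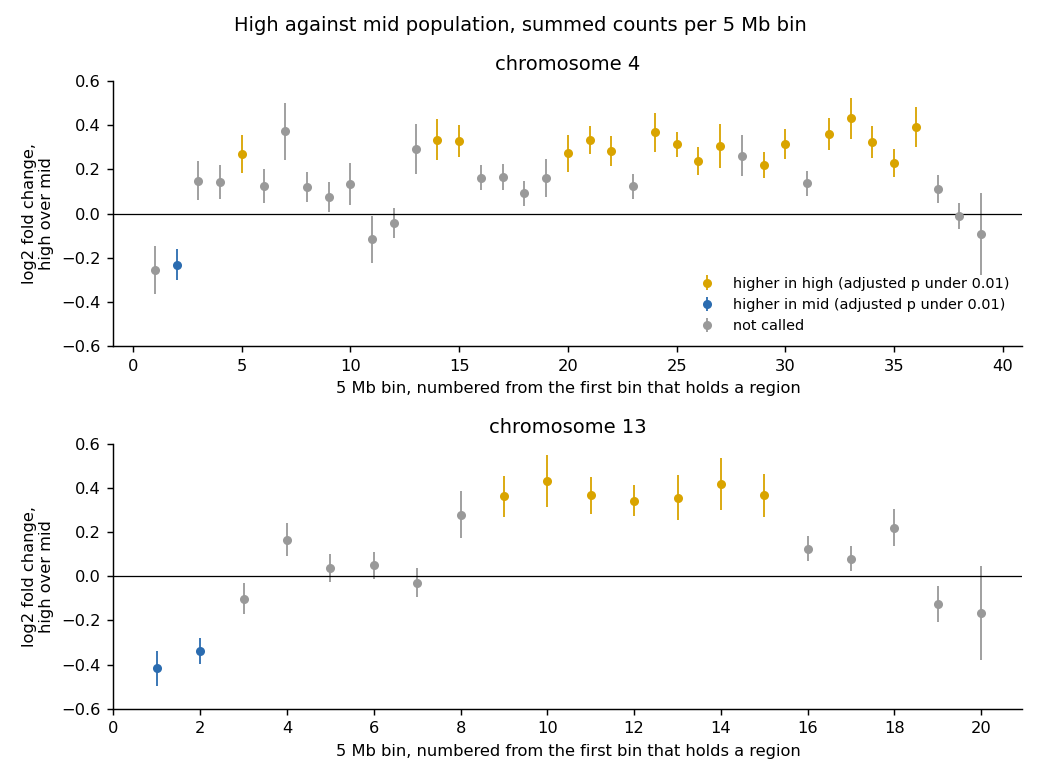
Log2 fold change of high over mid for the summed counts of each 5 Mb bin (y axis; bars show the standard error) along chromosome 4 and chromosome 13 (x axis, bins numbered from the first that holds a region), with called bins coloured by direction. Of the 17 high bins of chromosome 4, 1 lies on the short arm and the others along the long arm with uncalled bins between them, the 7 high bins of chromosome 13 form 1 run, and the mid bins lie near the start of the plotted stretch of each chromosome.

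The high bin with the smallest p on chromosome 4 was 120 to 125 Mb, whose 227 regions summed to 2376, 2153 and 1991 CPM in the high samples and 1753, 1663 and 1820 CPM in the mid samples (log2 fold change 0.31, SE 0.06, edgeR adjusted p = 9.04e-07). On chromosome 13 it was 75 to 80 Mb, with 1715, 1525 and 1342 against 1183, 1178 and 1237 CPM (0.34, SE 0.07, edgeR adjusted p = 9.5e-06). In both bins every high sample exceeded every mid sample. The bin at 5 to 10 Mb of chromosome 4, the second densest of the chromosome, had 2041, 2272 and 2371 CPM in the high samples and 2552, 2706 and 2574 CPM in the mid samples (-0.23, SE 0.07, edgeR adjusted p = 0.00341). At 25 to 30 Mb of chromosome 13 the high samples had 1333, 1344 and 1552 CPM and the mid samples 1721, 1859 and 1757 CPM (-0.34, SE 0.06, edgeR adjusted p = 5.53e-07). Here every mid sample exceeded every high sample. The called bins above and the called regions below were picked by small p or large change. Groups lying apart in them is therefore no separate support.

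Across the 59 bins, the log2 fold change correlated with the number of regions at r = -0.17. Over the 57 bins with at least 50 regions r was -0.41, so the value depended on the 2 partly filled last bins. With the median width of the regions of a bin, r was -0.59 over 59 bins and -0.64 over 57. The bins share their libraries, and these coefficients are descriptions.

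Among the high calls of chromosome 4, the region with the smallest p-value, chr4:167636649-167637739, had 8.50, 8.92 and 6.0 CPM in the high samples and 2.55, 2.55 and 2.49 CPM in the mid samples (log2 fold change 1.60, SE 0.20, edgeR adjusted p = 1.52e-07). At chr4:164737223-164738126 the values were 51.1, 32.3 and 20.4 CPM against 10.9, 13.2 and 14.6 CPM, and at chr4:91656712-91657325 11.4, 7.51 and 5.26 CPM against 2.14, 2.90 and 2.38 CPM. The groups did not overlap in any of these regions, and replicate 1 of the high population had the highest value in the last 2 of them. At chr4:164737223-164738126 the log2 fold change of 1.34 fell to 0.86 without high replicate 1, and DESeq2 gave an adjusted p of 0.0519. A larger change was found at chr4:188808035-188808611 (log2 fold change 1.85, SE 0.28, edgeR adjusted p = 5.03e-06), with 6.11, 2.40 and 3.04 CPM against 1.01, 0.736 and 1.30 CPM.

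On chromosome 13 the smallest p among the high calls was at chr13:102332451-102333085, with 23.2, 12.1 and 8.78 CPM in the high samples and 3.57, 4.46 and 4.91 CPM in the mid samples (log2 fold change 1.66, SE 0.21, edgeR adjusted p = 1.08e-07). The next were chr13:66334826-66335457, with 22.9, 11.8 and 6.48 against 2.55, 4.89 and 4.6 CPM, and chr13:33032731-33033250, with 12.9, 8.74 and 4.89 against 2.37, 2.60 and 3.64 CPM. The largest change was 1.69 (SE 0.26, edgeR adjusted p = 7.58e-06) at chr13:84870400-84871110. The high samples spread widely in these regions, with replicate 1 highest, but none fell to the level of a mid sample. DESeq2 did not call the first 3 of them, with adjusted p of 0.0214, 0.136 and 0.0532. Without high replicate 1 or mid replicate 1 the log2 fold change at chr13:66334826-66335457 was 0.86 and 0.88, against 1.62 with all samples.

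Mid calls with the smallest p-values on chromosome 13 were wide and deeply read. At chr13:28539589-28544128 the high samples had 30.0, 26.4 and 31.0 CPM and the mid samples 57.6, 58.9 and 52.3 CPM (log2 fold change -0.95, SE 0.13, edgeR adjusted p = 4.15e-07). At chr13:20531236-20534795 the values were 45.1, 38.9 and 41.3 CPM against 74.8, 77.7 and 66.3 CPM, and at chr13:112725639-112728885 27.1, 29.2 and 27.6 CPM against 48.4, 49.4 and 48.5 CPM, each with a log2 fold change of -0.80. Spread within the groups was small in all of these, and the groups lay apart. Without mid replicate 2 the calls at chr13:20531236-20534795 and chr13:112725639-112728885 were lost (edgeR adjusted p = 0.0347 and 0.012), and without high replicate 2 the former was lost (0.0137). The largest negative changes were in regions with few reads, -1.34 (SE 0.33, edgeR adjusted p = 0.00377) at chr13:24085422-24085949 and -1.30 (SE 0.34, edgeR adjusted p = 0.00664) at chr13:107462394-107462922. Both calls were lost without the block (edgeR adjusted p = 0.0222 and 0.0506) and without replicate 2 or 3 of either population (0.0258 to 0.159), and they were made in 8 and 7 of 15 fits.

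On chromosome 4 the mid call with the smallest p was chr4:7584074-7584674, with 2.51, 4.86 and 2.33 CPM in the high samples and 5.71, 9.35 and 6.09 CPM in the mid samples (log2 fold change -1.16, SE 0.20, edgeR adjusted p = 4.03e-05). Near the end of the long arm, chr4:190970353-190971369 had 11, 13 and 18.8 CPM against 24.9, 28.6 and 23.6 CPM, and on the short arm chr4:4859455-4863273, a wide region, had 29, 28.3 and 23.3 CPM against 43.6, 47.5 and 40.8 CPM. In each of them the mid samples were all above the high samples. The first lost its call without the block (edgeR adjusted p = 0.0169), and the other two lost theirs without high replicate 2 (0.0258 and 0.0222) or mid replicate 2 (0.0552 and 0.0486), the wide region also with loess offsets on width (-0.43, 0.0106). The largest changes were -1.45 at chr4:179075891-179076380 and -1.33 at chr4:183191036-183191563, where single samples held between 9 and 53 reads (SE 0.37 and 0.34, edgeR adjusted p = 0.00502 and 0.0059). Each was called in 7 of 15 fits and was lost without the block (0.0332 and 0.0329), with total counts, and without replicate 2 of either population. The former was also lost without replicate 3 of either population and the latter without replicate 1 of either.

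The widest regions and those with the most reads did not share a direction. On chromosome 4 the region with the most reads, chr4:103746264-103751397, had a log2 fold change of 0.04 (edgeR adjusted p = 0.834), and the widest, chr4:134066878-134075242 at 8365 bp, had 0.21 (edgeR adjusted p = 0.207). On chromosome 13 the widest, chr13:53418670-53426580 at 7911 bp, had -0.34 (edgeR adjusted p = 0.0291). The most deeply read, chr13:111363782-111369059, was a mid call, with 155, 156 and 137 CPM in the high samples and 240, 202 and 199 CPM in the mid samples (-0.51, SE 0.11, edgeR adjusted p = 0.000496). That difference shrank to -0.07 (edgeR adjusted p = 0.652) with loess offsets on average log2 CPM and to -0.14 (0.35) with those on width, and the call was also lost without the block (0.0208), without high replicate 2 (0.0303) and without mid replicate 2 (0.0677).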

How the data were processed

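FAST-ATAC reads of 3 high and 3 mid samples were processed by the authors: trimming, alignment to hg19, removal of duplicates, a shift to the Tn5 cut site, peak calling on alignments combined over replicates, merging of both populations and counting. Their processing notes name BWA 0.7.15, SAMtools 0.1.19 and MACS 1.4.2. The deposited table holds unnormalised counts per region and sample. Pooled calling leaves unknown in how many replicates a region would be called, and merged regions that are wide gather more reads, which gives them more power. Starts are printed 1 higher than deposited.

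Counts of all 118556 regions, unfiltered, were fitted with edgeR 4.0.16 in R 4.3.3 (TMM, quasi-likelihood, replicate number as a block of 3 levels, Benjamini-Hochberg adjustment, threshold 0.01), and summed counts of 5 Mb bins likewise. The study used a batch covariate whose coding is not given in the sources used here. Same-numbered samples deviated together (r = 0.302, 0.191 and 0.234 over all regions, against -0.257 to 0.0599 for other pairs), so the numbers of the labels were taken as pairs. DESeq2 1.42.0 was an alternative and limma 3.58.1 gave loess offsets (span 0.3). Shares were tested with scipy 1.17.1. The fits were tested on simulated data with randomly drawn features changed in both directions. Of 200 regions changed by 1 on the log2 scale, 112 were recovered with 1 false call. Of 40 bins changed by 0.5, 38 were recovered with 0 false calls. No shift of a whole chromosome was simulated, so the scaling was not tested. Other alternatives changed the scaling, filter, threshold, bin size and samples.

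Named on each chromosome and in each direction were the 3 called regions with the smallest p and the 2 with the largest change, among those with all pairs changed the called way, with the densest and sparsest bins, longest gaps, widest and most deeply read regions, and the called bins with the smallest p. The regions, bins and rules were chosen with earlier results of these data known. AT content and genes per Mb are from GRCh38 and GENCODE; the last regions end 788960 bp (chromosome 4) and 742964 bp (chromosome 13) past the GRCh38 chromosome ends, so gene names, sequences and GC content of regions were not taken from it.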

Additional observations from a re-analysis of the deposited data

How the results depend on the processing

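Medians on both chromosomes and the shares of counts kept their sign under each alternative run for them. The offset per chromosome turned the balance of calls, from 84.3% high (506 high, 94 mid) to 33.3% (137 and 275). It left 0 regions called in opposite directions. Leaving out samples or pairs gave 61 to 753 high and 3 to 128 mid regions, 0 to 37 high bins (24 with all samples) and 0 to 3 mid bins (3). With the block, leaving out a single sample nearly repeats leaving out its pair, since the partner has no comparison left. The fits without high replicate 2 and without mid replicate 2 called no bin in edgeR. In them 11 and 13 bins had an unadjusted p under 0.05 in the high direction and 2 and 2 in the mid direction, with no count over the genome given. Without the replicate block, regions fell to 61 and 13 and bins numbered 19 and 2; this change in pairing turned the sign of 0 bins.

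Shares over all features tested follow in brackets. DESeq2 gave 185 high regions (1.38%) among 5588 with an adjusted p. Total counts gave 882 high and 62 mid regions (4.19% and 2.68%), 38 high and 2 mid bins (31.3% and 13%), a median of 0.28 on chromosome 13, and another sign in 4 bins. Loess offsets on width gave 53 mid regions (2.44%), and an adjusted p under 0.05 gave 1237 and 220 (6.03% and 7.08%). Bins of 2 Mb gave 54 high and 7 mid of 143 (15.3% and 16%), and bins of 10 Mb 16 and 1 of 30 (22.4% and 18.3%). Of alternatives added after seeing the data, regions up to 2000 bp gave 12 and 2 bins (7.65% and 10.8%), and TMM factors taken from single regions gave 26 and 2 (18.6% and 16%). Of the values for the named regions, 244 kept their side of the threshold and 54 did not. The causes of these shifts were not tested.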

Other observations

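Neighbouring regions on the 2 chromosomes had related fold changes. Adjacent regions under 5 kb apart had log2 fold changes correlated at r = 0.37 (2074 pairs), falling to 0.33 at 5 to 20 kb (4313 pairs), 0.30 at 20 to 100 kb (4068 pairs) and 0.22 beyond 100 kb (338 pairs). On the other chromosomes the same distances gave 0.47, 0.42, 0.38 and 0.29. All pairs come from the same 6 libraries, and no test was made.

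Called regions within 100 kb of another with the same direction numbered 144 of 350 high calls on chromosome 4, in 61 groups, and 70 of 156 on chromosome 13, in 30 groups. Of the mid calls, 35 of 58 on chromosome 13 stood in 12 groups and 17 of 36 on chromosome 4 in 7 groups. Groups on the other chromosomes are not given here, so these counts have no background to be set against. The largest groups had 6 regions each, the high calls at chr4:100736308-101008721 (272 kb) and the mid calls at chr13:28527057-28716305 (189 kb).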
